A study of Mus musculus with 6 samples.

Results

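The neutrophil granule and calprotectin genes S100a8, S100a9, Ngp, Camp, Ltf, Elane, Retnlg, Chil3, Mpo and Csf3r, 10 of the 54532 genes in the deposited count table, were followed library by library in injured mouse spinal cord. They were chosen from measured values of these same libraries, in which an earlier pass had found neutrophil genes higher in trained cord. Their difference between the groups is therefore given as a description, and the test results printed for them are not evidence for a difference. All mice were of the C57BL/6J strain and had an injured cord, the controls included. The trained group was put on a rotarod, a turning rod on which the animal has to keep walking, and the untrained group was not. Assignment to the groups was random, per the labels. Both groups had 3 libraries of total RNA, and every label gave day 28 after training as the time of collection. The labels name no uninjured group, no sex and no injury level, and do not say that each library came from its own mouse, so the spread between libraries may in part be technical.

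Neutrophils are short-lived white blood cells that are made in the bone marrow and enter injured tissue from the blood. As they mature they pack proteins into successive classes of granules: primary granules with myeloperoxidase and serine proteases first, then specific and gelatinase granules with lactoferrin and cathelicidin. The mRNA of most granule proteins is made in the marrow precursors and declines in the mature cell, whereas S100a8 and S100a9, whose proteins pair as calprotectin, remain abundant in the cytosol of mature neutrophils. Calprotectin binds calcium, zinc and manganese and, once released, acts as an alarm signal through pattern recognition receptors.

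Library totals ran from 15814104 to 26092014 counts, the highest being trained replicate 1. A count of 3, taken as the floor of detection, corresponded to 0.115 to 0.190 CPM, the read count scaled to library size, depending on the library. Library sizes were adjusted by the trimmed mean of M values (TMM). Of the genes in the table, 16909 had enough counts for the fit with edgeR's quasi-likelihood test, and their median log2 fold change, trained over untrained, was -0.01. All 11 listed genes of cord neurons and glia and of cord position were measured, and 0 of the 11 passed the test. That does not show the groups to be level, since only 10 of the 16909 genes passed (0.0591%). Every trained library lay above every untrained one in 3 of the 11 (Mbp, Hoxc9 and Hoxb8) and below in 1 (Slc6a5). Over all genes tested these shares were 8.13% and 8.69%.

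The 10 genes lie on chromosomes 3, 4, 9, 10, 11 and 16 of the table, whose coordinates had the same ends as GENCODE M21 (GRCm38) for all 10. S100a8 (chr3:90668978-90670035, plus strand) and S100a9 (chr3:90692632-90695721, minus strand) are 22.6 kb apart with 0 genes between them. Chil3 is on the same chromosome (chr3:106147554-106167564, minus strand). Camp (chr9:109847379-109849617, minus strand), Ngp (chr9:110419747-110423012, plus strand) and Ltf (chr9:111019271-111042767, plus strand) follow each other on chromosome 9, with gaps of 570.1 kb holding 22 genes and of 596.3 kb holding 29 genes. Csf3r (chr4:126024550-126044440), Elane (chr10:79886247-79888215), Mpo (chr11:87793581-87804413) and Retnlg (chr16:48872621-48874496) are all on the plus strand. Mpo was the only one of the 10 whose span overlapped another gene of the table, and that gene, Gm11505, had 0 counts in all 6 libraries.

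Neutrophil precursors depend on the transcription factors of the C/EBP family and PU.1, and the 250 bases before each RefSeq start site (GRCm38.p6, all 10 genes matched) were searched on both strands for the C/EBP letters TTGCNNAA and the PU.1 letters GAGGAAG. The C/EBP letters occurred in 4 of the 10 promoters (40%) and in 9.56% of 32851 RefSeq promoters. The PU.1 letters also occurred in 4 of the 10 (40%), and in 10.6% of all. None of the 10 held both, so no matches overlapped, whereas 0.95% of all promoters held both. The upstream sequences of the calprotectin pair and of 2 specific granule genes, Ngp and Ltf, are shown, 5′ to 3′ on the strand of the gene, because these 4 had the most counts among the genes with a match whose trained and untrained libraries did not overlap. Capitals mark the matching letters or, for a match on the other strand, their reverse complement. Bases that lie inside the span the count table gives the gene were left out, so a sequence can stop short of the RefSeq start.
S100a8 (chr3:90668821-90668977, plus strand): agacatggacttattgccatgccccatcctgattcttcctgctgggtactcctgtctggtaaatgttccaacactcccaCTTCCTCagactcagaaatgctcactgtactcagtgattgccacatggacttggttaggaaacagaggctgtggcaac
S100a9 (chr3:90695722-90695971, minus strand): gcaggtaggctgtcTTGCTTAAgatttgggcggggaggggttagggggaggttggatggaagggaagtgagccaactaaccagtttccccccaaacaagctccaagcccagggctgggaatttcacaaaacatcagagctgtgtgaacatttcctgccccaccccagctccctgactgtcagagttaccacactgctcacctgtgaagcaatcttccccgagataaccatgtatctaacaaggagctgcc
Ngp (chr9:110419558-110419746, plus strand): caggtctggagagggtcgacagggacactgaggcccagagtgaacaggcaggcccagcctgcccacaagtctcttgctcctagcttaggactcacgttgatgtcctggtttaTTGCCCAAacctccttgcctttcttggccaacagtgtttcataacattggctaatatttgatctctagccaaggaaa
Ltf (chr9:111019042-111019270, plus strand): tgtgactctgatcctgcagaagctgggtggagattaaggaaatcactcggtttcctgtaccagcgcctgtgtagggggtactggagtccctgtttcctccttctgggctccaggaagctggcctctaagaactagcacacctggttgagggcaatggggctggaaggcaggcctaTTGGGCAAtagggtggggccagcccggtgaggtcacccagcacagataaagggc
In S100a8 the capitals are PU.1 letters on the other strand, 171 to 165 bases before the RefSeq start, and in S100a9 they are C/EBP letters 236 to 229 bases before it. Ngp held C/EBP letters 138 to 131 bases before the start and again, on the other strand and inside the table's span, 11 to 4 bases before it. The Ltf match was on the other strand, 75 to 68 bases before the start. Retnlg held C/EBP letters 246 to 239 bases before its start on the other strand. PU.1 letters stood 85 to 79 bases before the start of Elane, 86 to 80 before that of Csf3r, and at 247 to 241 and 224 to 218 before that of Mpo. Camp and Chil3 held neither in this window, which describes these letters only.

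S100a9, the larger calprotectin subunit, measured 9.06, 18.7 and 18.6 CPM in trained replicates 1 to 3 and 6.23, 5.29 and 5.24 CPM in the untrained ones. The groups did not overlap, and trained replicate 1 was the trained library nearest to the untrained ones. The means were 15.5 ± 5.55 CPM trained and 5.58 ± 0.557 CPM untrained (SD, n = 3 each), a log2 difference of 1.46 ± 0.28 (SE). S100a8, the partner subunit, measured 8.05, 17.6 and 13.8 CPM in trained cord and 5.08, 6.61 and 2.94 CPM in untrained cord. Again every trained library lay above every untrained one, here with untrained replicate 3 the lowest of all, and the log2 difference was 1.42 ± 0.39 (SE). The proportion of the 2 subunits overlapped between the groups. S100a9 stood at 1.13, 1.06 and 1.35 times the CPM of S100a8 in trained cord and at 1.23, 0.80 and 1.78 times in untrained cord, so that the untrained range enclosed the trained one. Per kilobase of transcript, the scale on which genes can be set side by side, S100a9 was the highest of the 10 genes in both groups, at 29.6 CPM per kb trained and 10.7 CPM per kb untrained. S100a8 was next in trained cord, at 18.9 CPM per kb against 7.03 untrained, and in untrained cord Csf3r stood between them.

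**Figure D1:**
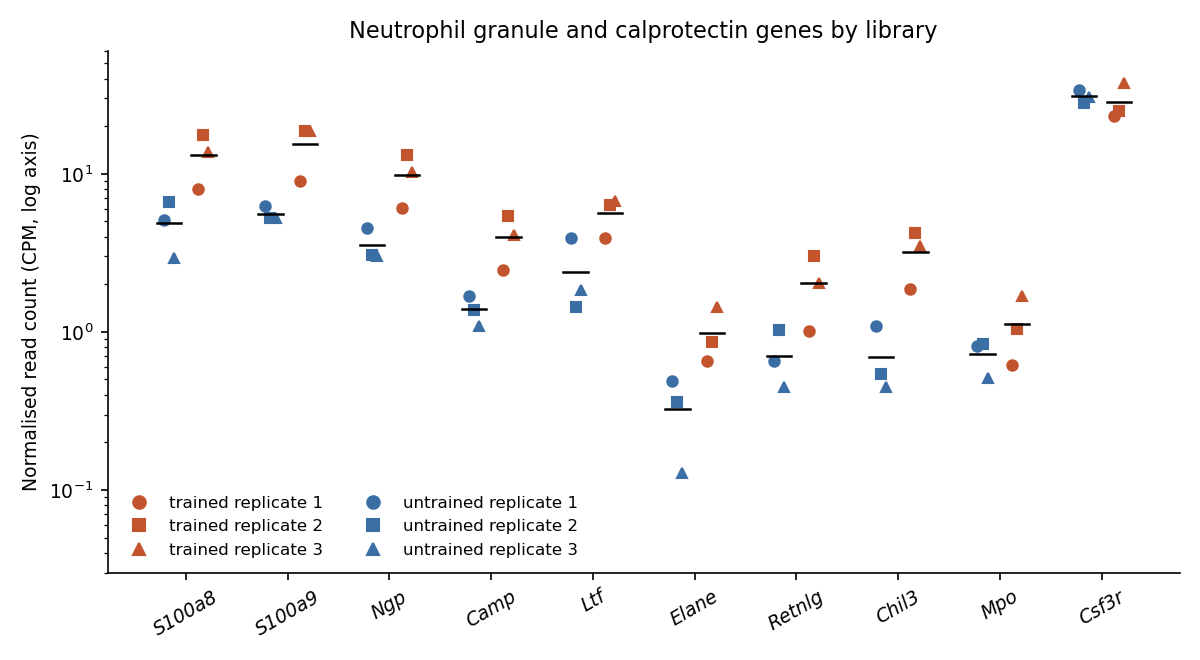
Normalised read count (CPM, log axis) of the 10 genes in each of the 6 libraries, with untrained libraries in blue, trained libraries in orange, a symbol for each replicate and a bar at each group mean. S100a8, S100a9, Ngp, Camp, Ltf, Elane and Chil3 show every trained library above every untrained one, Retnlg and Mpo overlap, and Csf3r overlaps with its untrained mean of 31.0 CPM above the trained mean of 28.5 CPM.

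Among the specific granule genes, Ngp, which encodes neutrophilic granule protein, was the most abundant per kilobase (8.05 CPM per kb trained, 2.89 untrained). Ngp measured 6.04, 13.2 and 10.3 CPM in trained cord and 4.53, 3.06 and 3.003 CPM in untrained cord. The groups did not overlap and the log2 difference was 1.46 ± 0.29 (SE). Camp, the mouse cathelicidin, an antimicrobial peptide precursor, measured 2.48, 5.44 and 4.10 CPM in trained and 1.69, 1.38 and 1.09 CPM in untrained cord. The order of the 6 libraries was the same as for Ngp, and the log2 difference of Camp was 1.501 ± 0.32 (SE).

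Ltf, which encodes the iron-binding protein lactoferrin, measured 3.95, 6.36 and 6.70 CPM in trained cord and 3.93, 1.44 and 1.85 CPM in untrained cord. Its groups were all but touching, since trained replicate 1 and untrained replicate 1 were almost level. With library totals as the only scaling they overlapped, and without untrained replicate 1 the log2 difference of Ltf went from 1.21 ± 0.37 (SE) to 1.78. Untrained cord varied more in Ltf than trained cord did, with a coefficient of variation of 55.4% against 26.5%, where counting error alone would give 15.5% and 9.79%.

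Chil3, the chitinase-like protein Ym1 of neutrophil precursors and of some macrophages, measured 1.86, 4.2 and 3.48 CPM in trained cord and 1.09, 0.541 and 0.447 CPM in untrained cord. The groups did not overlap, and at 2.15 ± 0.41 (SE) its log2 difference was the largest of the 10. The untrained values of Chil3 rest on 20, 9 and 7 counts. Retnlg, a secreted resistin-like protein of neutrophils, measured 1.01, 3.03 and 2.05 CPM in trained cord and 0.655, 1.02 and 0.447 CPM in untrained cord. Here the groups overlapped, because trained replicate 1 fell just below untrained replicate 2, and the log2 difference was 1.47 ± 0.45 (SE). Both genes have close relatives, whose reads could be confused with theirs depending on how shared reads were counted. Chil4 had 1 count in all, Retnlb had 0, Retnla had 1 to 3 counts in each library and Retn at most 4. Chil1, a more distant relative of Chil3, was abundant, with 500 to 760 counts in each library and overlapping groups.

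The primary granule genes were the scarcest. Elane, which encodes neutrophil elastase, had 17, 14 and 23 counts in trained cord and 9, 6 and 2 in untrained cord, or 0.658, 0.865 and 1.43 CPM against 0.492, 0.360 and 0.128 CPM. The groups did not overlap, but untrained replicate 3 was under the floor of 3 counts, with a 95% Poisson interval of 0.242 to 7.22 counts that covers counting error only. The log2 difference of Elane was 1.51 ± 0.52 (SE), with the widest error of the 10, and it ranged from 1.16 without untrained replicate 3 to 1.94 without untrained replicate 1. Mpo, which encodes myeloperoxidase, measured 0.620, 1.05 and 1.68 CPM in trained and 0.819, 0.841 and 0.511 CPM in untrained cord. The Mpo groups overlapped, with trained replicate 1 below 2 of the untrained libraries. Its log2 difference of 0.57 ± 0.44 (SE) dropped to 0.17 without trained replicate 3 and rose to 0.90 without trained replicate 1.

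Csf3r, the receptor for granulocyte colony-stimulating factor, is carried by neutrophils and their precursors and also by other cells, among them monocytes. Which cells its counts came from here was not tested, so they cannot be read as neutrophil RNA alone. It measured 23.1, 25.01 and 37.4 CPM in trained cord and 34.1, 28.2 and 30.7 CPM in untrained cord. Trained replicates 1 and 2 stood below every untrained library and trained replicate 3 above, so the groups overlapped. The log2 difference was -0.13 ± 0.18 (SE), and its sign turned without trained replicate 1, to 0.01. Per kilobase it stood at 7.89 CPM per kb in trained and 8.59 in untrained cord. Csf3r made up 58.2%, 57.8% and 66.3% of the summed CPM of the 10 genes in untrained cord and 40.6%, 26.2% and 37.6% in trained cord.

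Of the 10 genes, 7 had every trained library above every untrained one, and 0 had the reverse order. Over all genes tested, 8.13% had every trained library above every untrained one and 8.69% every trained library below. The 7 genes were 7 as well with relative log expression or upper-quartile scaling and 6 with library totals. The median log2 difference of the 10 was 1.46, with 9 positive and 1 negative. In the edgeR fit over all genes, 10 of 16909 genes (0.0591%) passed an adjusted p of 0.05, 1 higher and 9 lower in trained cord, and 0 of the 10 neutrophil genes were among them. At an unadjusted p below 0.05 the fit gave 8 of the 10, all higher, and 1693 genes in all (10.01%). DESeq2 called 5 of the 10 (S100a9, S100a8, Ngp, Camp and Chil3) and 86 of the 17988 genes it gave an adjusted p (0.478%), and limma-voom called 0 of the 10 and 9 genes in all (0.0532%). Because the genes were chosen on this contrast, these counts are not evidence for a difference. Elane, Chil3, Retnlg and Mpo exceeded the count minimum of 0.606 CPM in 0, 1, 2 and 2 untrained libraries and in all trained ones, so they entered the fit through the trained group, while the other 6 exceeded it in all 6 libraries.

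The calls turned on single libraries. Without trained replicate 1, edgeR called 4 of the 10 (Camp, Chil3, Ngp and S100a9), and without trained replicate 3 it called Chil3, while the number of genes called over the whole table went from 10 to 21 (0.122% of those tested) and to 221 (1.29%). The median of the 10 log2 differences was 1.73 without trained replicate 1 and 1.17 without trained replicate 2, the extremes over the 6 omissions. Trained replicate 2 was the highest of the 6 libraries in 6 of the 9 genes other than Csf3r and trained replicate 3 in the other 3, and untrained replicate 3 was the lowest in 8 of the 9.

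**Figure D2:**
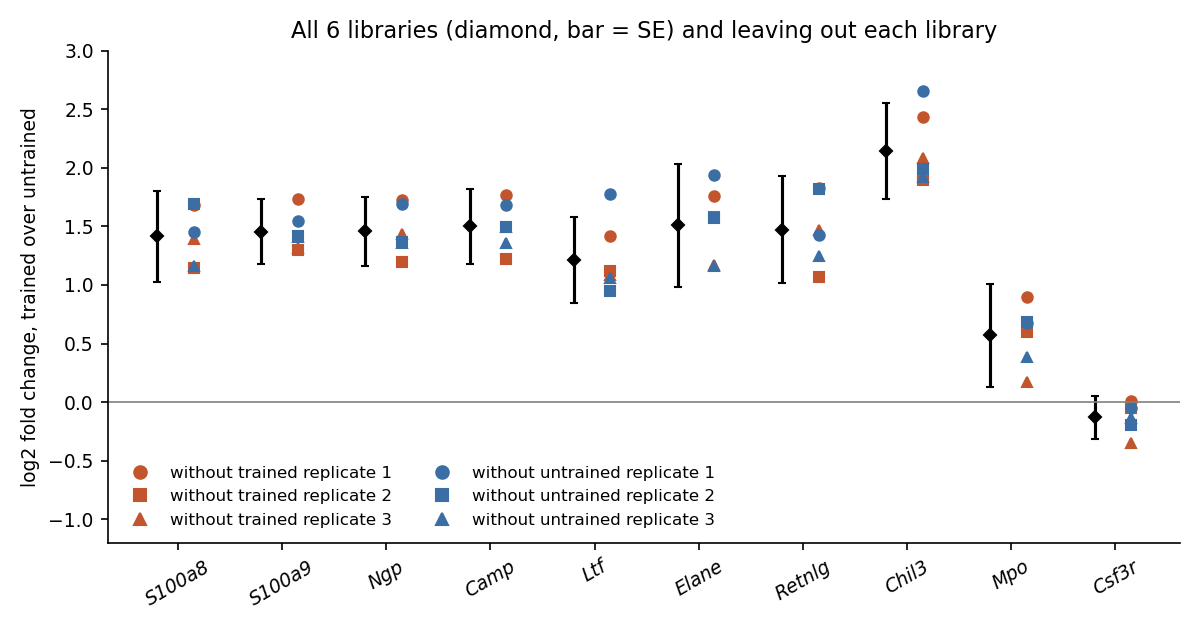
Log2 fold change (trained over untrained, edgeR) of each gene with all 6 libraries (black diamond, bar of 1 SE either side) and after leaving out each library in turn (coloured symbols). S100a8, S100a9, Ngp, Camp, Ltf, Elane, Retnlg and Chil3 stay above 0 at every omission, from 0.94 for Ltf to 2.65 for Chil3, and Csf3r lies on both sides of 0. Apart from Retnlg, those above 0 throughout had every trained library above every untrained one. Leaving out 1 library could hardly turn their sign, so staying above 0 does not measure stability.

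Summed over the 9 genes without Csf3r, trained cord held 33.7, 70.4 and 62.1 CPM and untrained cord 24.5, 20.5 and 15.7 CPM. The sums did not overlap, and the means of 55.4 ± 19.2 and 20.2 ± 4.44 CPM (SD, n = 3 each) gave a ratio of 2.74. The composition of the sum is given as shares, with no test. Calprotectin made up 50.7%, 51.6% and 52.1% of it in trained cord and 46.1%, 57.9% and 52.2% in untrained cord. The 5 specific granule and secreted genes (Ngp, Camp, Ltf, Chil3 and Retnlg) made up 45.5%, 45.7% and 42.9% against 48.6%, 36.3% and 43.7%. Elane and Mpo together made up 3.79%, 2.72% and 4.995% against 5.35%, 5.85% and 4.08%, below every untrained library in trained replicates 1 and 2. In each of these 3 shares the groups overlapped. In bulk cord RNA, more neutrophils and more of this RNA per neutrophil cannot be told apart.

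**Figure D3:**
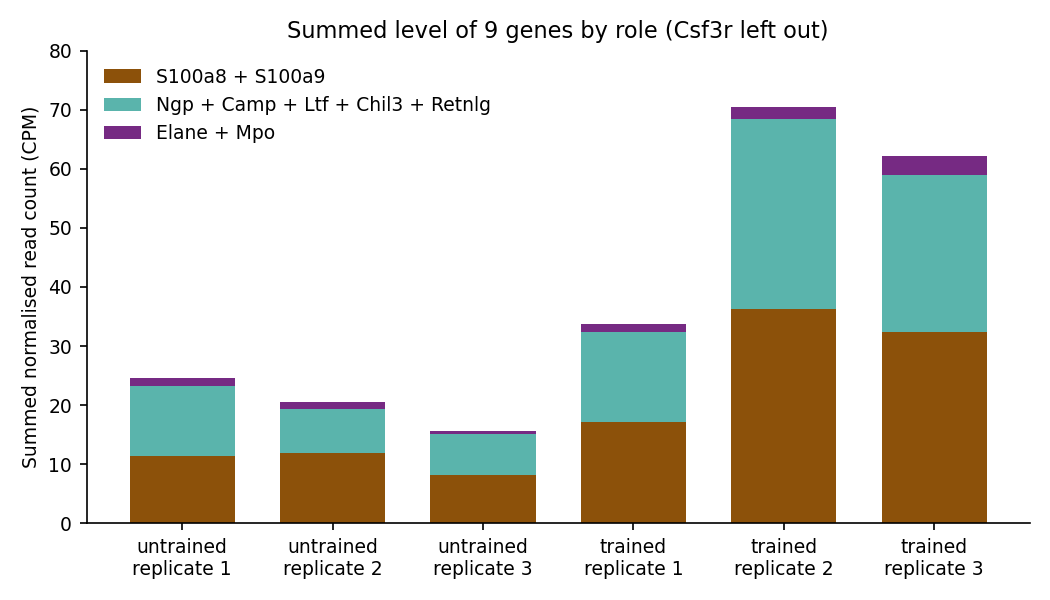
Summed normalised read count (CPM) of the 9 genes other than Csf3r in each library, stacked as calprotectin (S100a8 and S100a9), specific granule and secreted genes (Ngp, Camp, Ltf, Chil3 and Retnlg) and primary granule genes (Elane and Mpo). Trained replicates 2 and 3 reach 70.4 and 62.1 CPM, trained replicate 1 reaches 33.7 CPM, and the untrained libraries lie between 15.7 and 24.5 CPM.

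Over all genes the typical biological coefficient of variation was 12.2%. Coefficients of variation among trained libraries were 36.6% for S100a8, 35.9% for S100a9, 36.4% for Ngp and 37.0% for Camp, where counting error alone would give 6.48%, 5.99%, 7.49% and 11.7%. For Mpo and Elane the counting error was itself large, 22.4% and 23.6% among trained libraries beside coefficients of variation of 47.6% and 40.5%. S100a9 in untrained cord, at 9.97%, varied no more than the 10.3% that counting gives.

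Red blood cell genes were also higher in trained replicates 2 and 3. The 7 listed were Hba-a1, Hba-a2, Hbb-bs and Hbb-bt (globins), Alas2 (the first enzyme of haem synthesis in red cells), Slc4a1 (band 3) and Bpgm. All 7 were tested and had a positive log2 difference, with a median of 0.93, and 0 passed the test. In 1 of the 7 (Hba-a1) every trained library lay above every untrained one, beside 8.13% of all genes tested. The sum of the 7 was 160.04, 240.3 and 241 CPM in trained and 159, 164 and 131 CPM in untrained cord. None of the 7 was at 0 in any library. Bpgm, which is also abundant outside blood, was set aside for a closer comparison, a choice made after its values were seen.

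The sum of the 6 others was 62.5, 149 and 148 CPM in trained and 69.9, 66.4 and 38.3 CPM in untrained cord. Trained replicates 2 and 3 stood above all untrained libraries, and trained replicate 1 lay within the untrained range. Relative to the untrained mean, the 6 red cell genes stood at 0.639 to 1.22 in trained replicate 1 (median 0.909), at 2.33 to 3.17 in replicate 2 (median 2.74) and at 1.94 to 3.09 in replicate 3 (median 2.45). The 8 neutrophil genes without Csf3r and Mpo stood at 1.42 to 2.68 in trained replicate 1 (median 1.68), at 2.64 to 6.06 in replicate 2 (median 3.67) and at 2.78 to 5.01 in replicate 3 (median 2.93). Mpo and Csf3r, set apart after their values were seen, stood at 0.856 and 0.744 in trained replicate 1, inside the red cell range. In that library the other 8 neutrophil genes did not overlap the red cell genes, whereas all 10 together did, and in the other trained libraries the 8 overlapped them. The neutrophil genes were chosen on this contrast, so the separation in trained replicate 1 can follow from that choice and from setting 2 genes apart. The part of blood in the neutrophil values was not tested.

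**Figure D4:**
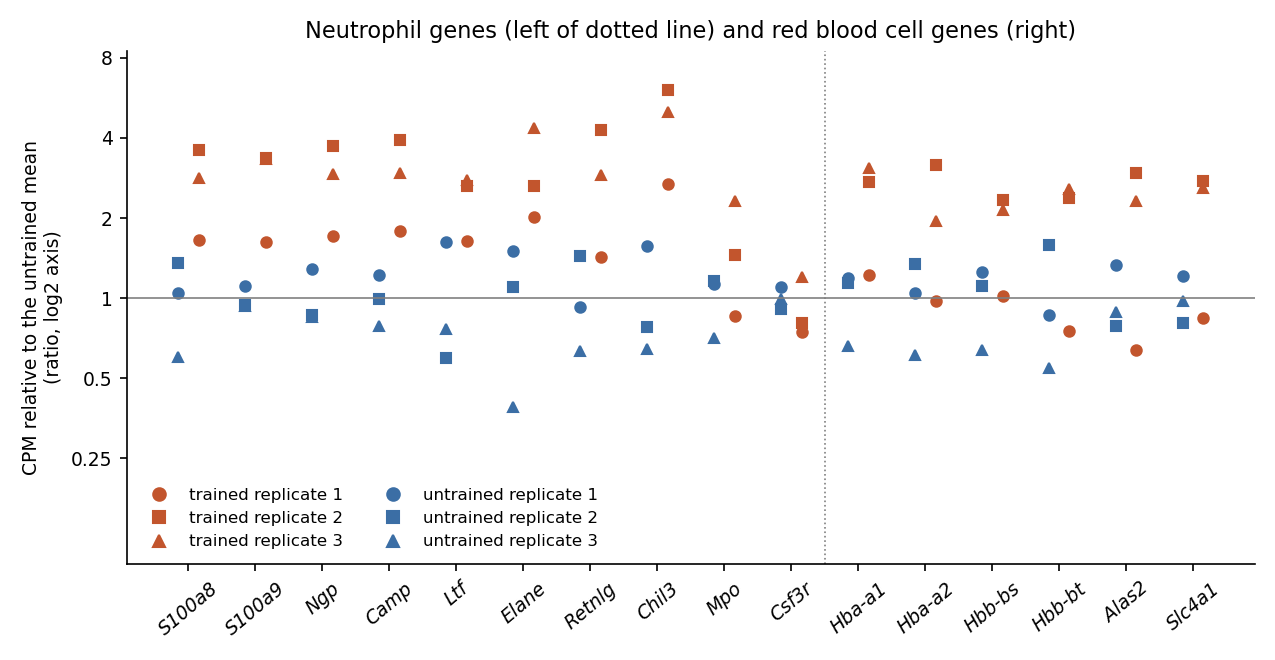
Normalised read count of each gene in each library divided by the mean of the 3 untrained libraries (log2 axis), for the 10 neutrophil genes on the left and 6 red blood cell genes on the right. In trained replicate 1 (orange circles) the red cell genes lie between 0.639 and 1.22 and the neutrophil genes other than Mpo and Csf3r between 1.42 and 2.68, while trained replicates 2 and 3 stand at 1.94 or above in both sets apart from Mpo and Csf3r. The neutrophil genes were chosen on this contrast, and Mpo and Csf3r were set apart after their values were seen.

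The genes whose profile over the 6 libraries came closest to the calprotectin, Ngp and Camp mean were also sought among all genes tested, by the root mean square difference of centred log2 CPM. Among the 10 themselves, Retnlg came 6th of 16909 (0.26), Elane 20th, Ltf 22nd, Chil3 23rd, Mpo 132nd and Csf3r 11610th, behind the 4 genes that defined the profile. All 10 were chosen on the contrast that shapes this profile, so near ranks among them follow in part from that choice. They are not evidence that the genes vary together. The nearest gene outside the 10 was the alpha globin Hba-a1 (0.24), at 28.0, 62.6 and 70.8 CPM in trained and 27.4, 26.1 and 15.2 CPM in untrained cord. After it came Gm37940, Gm20633, Chad, Hbb-bs, Gm28455, Gm7846, Spata3, Cep55 and Gm2614, with differences of 0.31 to 0.35. The beta globin Hbb-bs was thus the second blood gene among the 10 nearest. Chad encodes the cartilage matrix protein chondroadherin and Cep55 a protein of cell division. Apart from the 2 globins and Gm7846, which exceeded 4 CPM in 1 library, these genes stayed below 2.5 CPM in every library, where few counts set the profile.

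In most other neutrophil genes the groups overlapped, as they did in most genes tested. Of 59 genes on 4 further lists of granule, surface and cytosolic genes, 31 were tested, 22 had counts too low for the fit, and 6 had 0 counts in all libraries (Bpi, Cxcr1, Mrgpra2a, Stfa3, BC100530 and Gm5483). Of the 31, 14 had a positive and 17 a negative log2 difference, the median was -0.04, and 0 passed the test. Every trained library lay above every untrained one for 2 of the 31, Prtn3 and G0s2, and below for 1, Lcp1. Over all genes tested these shares were 8.13% and 8.69%. Over all listed genes other than the 10, edgeR called 0 of 125 tested, with 15 at an unadjusted p below 0.05, DESeq2 called 1 (Hoxb8) and limma-voom 0. Some listed genes outside the 10 that are named here and had counts overlap the span of another gene in the table. They are Alas2, Cebpa, Cebpb, Cx3cr1 (with 9 genes), Cyba, G0s2, Hoxc9, Il1b, Lcp1, Mbp, Per3, Prtn3, Runx1, S100b and Vcam1. Some of their reads could belong to an overlapping gene.

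Of the primary granule list, Prtn3, which encodes proteinase 3, a serine protease stored with elastase, measured 2.40, 1.48 and 2.85 CPM in trained and 0.819, 0.901 and 1.09 CPM in untrained cord. Its groups did not overlap, and its log2 difference of 1.27 ± 0.33 (SE) did not pass the edgeR test (adjusted p = 0.249). Srgn, the proteoglycan core that holds granule contents, had a log2 difference of -0.13 and overlapping groups.

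Of the 16 specific and gelatinase granule genes tested, 13 had a negative log2 difference, and the median was -0.13. Lyz2, lysozyme, which macrophages and microglia also make, was the most abundant per kilobase at 243 CPM per kb, with a log2 difference of -0.59 ± 0.24 (SE) and an adjusted p of 0.507 in edgeR. Cybb and Cyba, the membrane subunits of the phagocyte oxidase, had log2 differences of -0.86 and -0.16. Lcn2, the iron-siderophore binder of specific granules that reactive glia also make, was looked at after its values were seen. It measured 5.73, 9.82 and 25.5 CPM in trained and 24.1, 25.1 and 17 CPM in untrained cord, so trained replicates 1 and 2 stood below every untrained library and replicate 3 above.

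Of 17 listed genes of the surface of mature neutrophils, 12 had too few counts to be tested, 2 of them with 0 in every library. Of the 10 others, the mean CPM was higher in trained cord in 6 and lower in 4, and none exceeded 13 counts in a library. Ly6g, the defining surface marker of mouse neutrophils, had 5, 9 and 3 counts in trained and 3, 2 and 3 counts in untrained cord. Cxcr2, the receptor for neutrophil-attracting chemokines, had 11, 9 and 9 counts in trained and 1, 8 and 1 in untrained cord. Fpr1, a receptor for bacterial formyl peptides, had 2, 2 and 2 counts against 2, 4 and 3. Clec4e, a C-type lectin, had 1, 4 and 8 counts against 7, 6 and 6. These 4 were named after their values were seen, 2 with a higher and 2 with a lower mean in trained cord, and are a description at very low counts. Of the 5 surface genes tested, 3 had a positive and 2 a negative log2 difference (median 0.16), with overlapping groups in all. Clec4d, a C-type lectin of myeloid cells, had the lowest, -1.24 ± 0.60 (SE), and Cxcr4, the receptor that retains neutrophils in the marrow and is also found in other cells, had 0.19 ± 0.24 (SE). Ptafr, the receptor for platelet-activating factor, had 0.16.

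Among 7 cytosolic genes tested, G0s2, an inhibitor of fat breakdown that neutrophils express strongly, had a log2 difference of 0.36 ± 0.14 (SE) and Lcp1, the actin bundler L-plastin of all leukocytes, of -0.37 ± 0.09 (SE). Neither passed the edgeR test (adjusted p = 0.426 and 0.209).

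**Figure D5:**
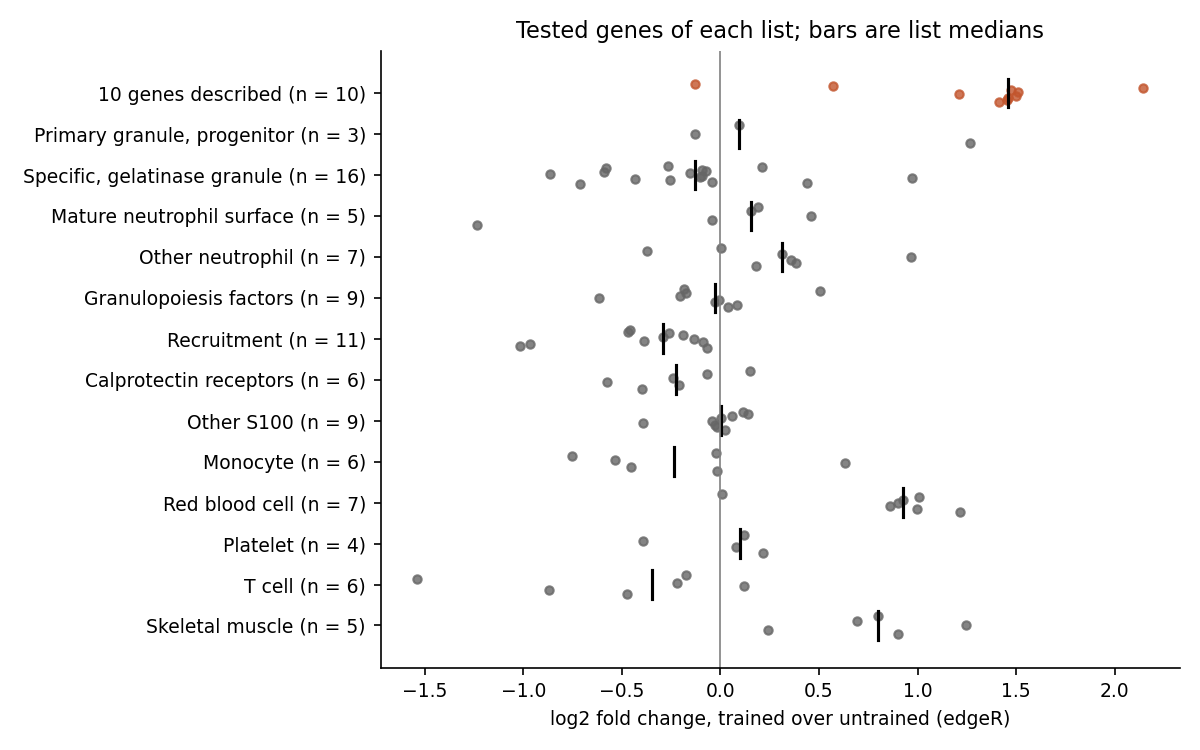
Log2 fold change (trained over untrained, edgeR) of every tested gene of the 10 (orange) and of 13 further lists (grey), with a bar at each list's median and the number tested in each label. The 10 genes have a median of 1.46, the red cell list 0.93 and the skeletal muscle list 0.80, while the 4 other neutrophil lists have medians from -0.13 to 0.31.

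Regulators listed for neutrophil development, not all of them drivers of granule formation, numbered 11, of which 9 were tested. Their median log2 difference was -0.03, with 3 positive and 6 negative and 0 past the threshold. Cebpa and Cebpb, of the C/EBP family, were the most abundant per kilobase. Per3, a clock gene, was the 1 gene of the list with every trained library below every untrained one, by a narrow margin, with a log2 difference of -0.17 ± 0.09 (SE). Runx1, a factor of blood cell development, had a log2 difference of -0.61 ± 0.26 (SE), and it passed the edgeR test only when trained replicate 3 was left out.

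Signals and adhesion molecules that bring neutrophils into tissue had negative log2 differences in all 11 genes tested of 21 listed, with a median of -0.29, where 8786 of the 16909 genes tested were negative. None of the 11 passed the test, and none had every trained library below every untrained one. Il1b, the cytokine interleukin 1 beta, measured 0.387, 0.371 and 0.745 CPM in trained and 1.15, 1.32 and 0.511 CPM in untrained cord. Its groups overlapped, and its log2 difference was -1.02 ± 0.48 (SE). Vcam1, an adhesion molecule of activated endothelium, had -0.29 ± 0.13 (SE), and Itgb2 and Selplg, the integrin and selectin ligand with which leukocytes attach, had -0.26 and -0.09. Csf3, the ligand of Csf3r, and the chemokine Cxcl3 had 0 counts in every library.

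The receptors of calprotectin were all measurable. Of the 6 listed, 1 had a positive and 5 a negative log2 difference (median -0.22), and 0 passed the test. Bsg, basigin, was by far the most abundant per kilobase and had every trained library above every untrained one, at 608, 624 and 605 CPM against 553, 536 and 568 CPM. Ly96, the partner of the endotoxin receptor Tlr4, had the reverse order, at 0.852, 0.618 and 0.993 CPM against 1.15, 1.08 and 1.47 CPM. Cd14, the co-receptor of Tlr4, had a log2 difference of -0.24.

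The other S100 genes were close to level between the groups. Of 9 tested, 5 had a positive and 4 a negative log2 difference, with a median of 0.00093, and 0 passed the test. S100b, made by astrocytes and oligodendrocytes, was the most abundant per kilobase and had a log2 difference of 0.11 ± 0.08 (SE), S100a1 of 0.02 and S100a16 of 0.14. Within 250 kb on either side of the calprotectin pair lay 26 other genes, of which 10 were tested, with log2 differences from -0.39 to 0.14 and a median of 0.01. Between Camp and Ltf on chromosome 9 lay 51 others besides Ngp, of which 21 were tested, with log2 differences from -0.23 to 0.39 and a median of 0.01. In neither stretch was a gene called.

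Markers of other cells in blood, marrow and adjoining tissue were counted beside these values. Over all 16909 genes tested, 8123 had a positive log2 difference. Every trained library lay above every untrained one in 8.13% of them and below in 8.69%. Skeletal muscle genes had positive log2 differences in all 5 tested of 9 listed (median 0.80), with 0 past the threshold. In 3 of the 5 every trained library lay above every untrained one. The sum of the muscle genes was 12.004, 11.2 and 10.4 CPM in trained and 10.9, 5.77 and 3.64 CPM in untrained cord, so the groups overlapped at untrained replicate 1. Bone genes had 4 positive and 2 negative log2 differences among 6 tested of 11 (median 0.34), and sums of 27.6 to 28.0 CPM in trained and 21.8 to 26.8 CPM in untrained cord, which did not overlap. Erythroid precursor genes had 2 positive of 3 tested of 9 listed (median 0.41), and Epor, the erythropoietin receptor, had every trained library above every untrained one by a narrow margin. The part of these tissues in the neutrophil values was not tested.

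Monocyte genes had mostly negative log2 differences, 5 of 6 tested of 9 listed (median -0.24) and sums of 29.1 to 43.7 CPM in trained and 34.8 to 42.1 CPM in untrained cord. Microglial genes had 6 negative log2 differences of 7 (median -0.17), with sums of 566 to 703 CPM in trained and 660 to 783 CPM in untrained cord. Platelet genes had 3 positive of 4 tested of 8 (median 0.10; sums of 8.15 to 10.8 and 6.67 to 9.90 CPM), with Gp1bb at 0 throughout. B-lineage genes had 2 negative of 2 tested of 12 (median -0.48, which turned to 0.19 without untrained replicate 1), with Vpreb2 at 0 throughout, and T cell genes 5 negative of 6 tested of 7 (median -0.35). Genes of eosinophils, basophils and mast cells had 1 positive and 1 negative of 2 tested of 13 (median -0.05). None of the genes on these lists passed the edgeR test.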

How the data were processed

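Spinal cord total RNA was sequenced as paired-end libraries, per the labels' protocols. The authors deposited raw whole-number counts per gene with gene coordinates, 1 column per library. In the submitters' processing notes mm8 and mm9 are named as builds, and Bowtie 0.12.2 as a tool, with no step attached, whereas 98.3% of the table's genes have the same ends as in GENCODE M21 (GRCm38). The sources used here do not give the counting tool, annotation or strand setting, so reads of overlapping genes could not be told apart.

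Counts were fitted with edgeR 4.0.16 in R 4.3.3 (filterByExpr, TMM scaling, robust quasi-likelihood test, group as the only term, all 6 libraries), with Benjamini-Hochberg adjustment over the 16909 genes tested and a threshold of 0.05. The typical biological coefficient of variation was 12.2%. CPM are counts scaled to TMM-adjusted library size, and log2 profiles used a prior count of 2. limma 3.58.1 (voom), DESeq2 1.42.0, other scalings, filters, a replicate block and leaving out each library were alternatives. The code was tested on simulated data. Members and lists were chosen with earlier results of these data known. Genes of the neutrophil, signal, receptor and S100 lists were named by a rule: those past the threshold or, with none, the 2 with the smallest unadjusted p and the 2 with the highest CPM per kb, plus the 10 genes nearest in profile; others named were chosen after their values were seen. Marker lists of other cells are given mostly as counts. Of the listed genes, 2 are not reported here and entered no list value.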

Additional observations from a re-analysis of the deposited data

How the results depend on the processing

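The number of genes past the threshold, 10 with all libraries in edgeR, was 86 with DESeq2 (35 higher, 51 lower), 276 without a filter on low counts (119 higher, 157 lower), 18 at an adjusted p below 0.1 and 4 to 221 over the 6 omissions of a library, the highest without trained replicate 3. Of the 10 neutrophil genes, edgeR called 0, DESeq2 called 5, the fit without a filter 7 (those 5 with Ltf and Retnlg), and the omissions 0 to 4. The highest of the omissions was without trained replicate 1, where 21 of 17227 genes (0.122%) were called. Because the 10 were chosen on this contrast, their calls are not evidence for a difference. Of the other listed genes, edgeR called 0, DESeq2 1 (Hoxb8), the fit without a filter 6 (Cd8a, Cx3cr1, Hba-a2, Hoxb8, Lcp1 and Prtn3), and the omissions 0 to 7, the highest without trained replicate 3. The cause of these changes was not tested. Replicate numbers are shared by both groups, but the labels do not say that they pair the libraries. Deviations of same-numbered libraries from their group means correlated at -0.18, -0.09 and -0.13, and those of differently numbered ones at -0.004 to 0.13. Whether the libraries are paired cannot be told from these correlations. A replicate block gave 5 genes (0 higher, 5 lower) and 0 of the 10, with a median log2 difference of 1.41. The median of the 10 lay between 1.17 and 1.73 over all alternatives. Of 138 recomputed log2 differences of single neutrophil genes, 138 moved by less than 1 SD between replicates. With 3 libraries in each group, leaving 1 out can hardly move a difference that far, so this count does not measure stability. Of the 138, 1 changed sign, Csf3r, to 0.0071 without trained replicate 1. Of 265 recomputed list medians, 6 moved by over 1 SD: primary granule to -0.29, microglia to -0.29 and cord genes to 0.06 without trained replicate 3, erythroid precursors to 0.23 and 0.24 without trained replicates 2 and 3, and B-lineage genes to 0.19 without untrained replicate 1. At these depths 3 counts equal 0.115 to 0.190 CPM, so Elane, Mpo and the untested surface genes are limited by counting.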
